A study of Bos taurus with 8 samples.

Results

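Apolipoproteins are the protein parts of lipoproteins, the particles in which liver and gut send fat and cholesterol into the blood. APOB is the structural protein of very-low-density lipoprotein, APOA1 and APOA2 are the main proteins of high-density lipoprotein, and the smaller members move between particles and steer the lipases and receptors that clear them. Hepatocytes make most of them, and cattle carry much of their plasma cholesterol in high-density lipoprotein. These roles are known mainly from work on human and mouse.

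The 10 genes APOA1, APOA2, APOA4, APOA5, APOB, APOC2, APOC3, APOE, APOH and APOM were chosen by gene name among the probes of a 1-colour Agilent cattle array, and each had 1 probe out of 15008 distinct probes (14952 gene names). The arrays measured liver of Holstein bull cattle aged 5 to 6 months in a trial with 11 animals. All animals carried a rumen fistula. They ate roughage for 11 days, a high-grain diet for 2 days as the SARA challenge (subacute ruminal acidosis), and roughage again for 1 day. The compared groups were 4 g and 0 g of egg-yolk immunoglobulin with antibody against lipopolysaccharide per head and day, put into the rumen for 14 days. Samples date from 2 days after the challenge, and a group given 2 g is not analysed here. Animals 19, 20, 23 and 24 each had 1 array at 4 g and 1 at 0 g, so that 4 arrays stood in each group and the animal was the pair. Only liver is named as tissue in the sample labels, but the extraction protocol speaks of rumen epithelium.

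A level is the log2 processed signal minus the 75th percentile of its array, given as mean ± SD over 4 animals. A difference is the level at 4 g minus that at 0 g, fitted in limma with the animal as a block over the 10985 probes that were well above background on at least 4 of 8 arrays. Levels of separate probes were not set against each other, since probes differ in how they bind. The adjusted p is Benjamini-Hochberg over all tested probes, with 0.05 as the threshold.

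The markers on the arrays were those of liver, and 18 or 19 of 20 hepatocyte genes were well above background on every array, with list means from 3.67 to 3.97 at 4 g and from 3.68 to 4.00 at 0 g. Markers of enterocytes, the other main source of APOA1, APOA4 and APOB, had list means from −4.80 to −4.07 at 4 g and from −4.80 to −4.18 at 0 g. Between 5 and 8 of these 13 genes were well above background. FABP2, SI and LCT were so on 0 of 8 arrays, while VIL1 (−2.74 to 0.54) and ALPI (−3.30 to −2.40) were so on all 8. Rumen and squamous epithelium genes were well above background in 3 or 4 of 15 cases on 7 arrays, and in 8 cases on the 0 g array of animal 19. All 14 pancreatic acinar genes were well above background on the 0 g array of animal 23, where they averaged 6.66, while on the other arrays they averaged −5.14 to −3.30. The adipocyte gene ADIPOQ had a level of −1.70 on that same array and of −8.13 to −4.85 on the others. A pair of arrays was dim, with a 75th percentile of 125.8 for animal 19 at 4 g and of 126.3 for animal 20 at 0 g, and the others lay between 218.0 and 311.7. Of all probes, 33 were counted as having 2 separate levels, with a gap above 2 log2 units and 2.5 times the wider spread. In 24 of them the 2 dim arrays stood apart from the other arrays, and 5 split the arrays 4 and 4. These 5 all made the same split, and whether they vary independently was not tested. They put both arrays of animal 19 on 1 side and both arrays of animal 20 on the other in 5 of 5 cases. For animals 23 and 24 they kept the 2 doses apart in 5 of 5 cases and grouped the 0 g arrays of both animals, which no exchange of animal numbers within a dose would undo. The animal or dose labels of these 4 arrays are therefore in doubt, and with a wrong dose label the differences printed below would be others. Values are given for each animal, and those of animals 19 and 20 alone stand beside the overall result. RAB33A split the arrays in another way, with animal 24 at 4 g and animal 23 at 0 g on the low side. It thus parted both pairs of arrays of animals 23 and 24 that the 5 probes joined.

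APOA1, APOA2, APOA4, APOE and APOH have probes that hold AATAAA, the signal for adding the poly(A) tail near the end of an mRNA, on the listed strand. That is 5 of 10 members, and 9.51% of all probes on the array hold these letters on the listed strand and 3.40% on the opposite strand. The stretches of 30 bases below come from the deposited probe sequences, 5′ to 3′, with AATAAA in capitals. They are shown because they carry the match, which describes the letters and is no proof of a site in use.
APOA1: ggtgttcttagaAATAAAcatttccggagt
APOA2: cccactccttgttttctacAATAAActttg
APOA4: ctacctctcacttctcAATAAAgctgctga
APOE: gggccctagcttAATAAAgatttctcaagt
APOH: aatctgatggaaacggaaaAATAAAgagac

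The other stretches of interest are bases 31 to 60 of the APOC2 and APOC3 probes, which are shown because the files take both from cDNA reads and not from a reference mRNA.
APOC2: ggcagatatgtcttcttgtacaacttctgg
APOC3: aactttttctcaaggcataaccctatttta

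In the files' coordinates (UMD 3.1), 8 of the 10 probes are placed and those of APOA1 and APOC3 are unmapped. APOA5 (chr15:27871684-27871743) and APOA4 (chr15:27906605-27906664) lie 34861 bases apart, in a cluster that in human also holds APOA1 and APOC3. APOE (chr18:53042739-53042798) and APOC2 (chr18:53059334-53059720) lie 16535 bases apart, and the APOC2 probe spans 387 genomic bases although it is 60 bases long. Coordinates ascend for the probes of APOE and of its neighbour APOC4 (chr18:53056976-53057035) but descend for the APOC2 probe. In human these 3 genes are read in the same direction. Which strand the APOC2 probe reads was not tested. Its values below are therefore those of the probe and may not be those of APOC2 mRNA. The remaining probes lie at chr3:8302662-8302721 (APOA2), chr11:78033953-78034012 (APOB), chr19:63230274-63230333 (APOH) and chr23:27459319-27459378 (APOM). The files do not say whether a probe lies in an exon's coding part or its untranslated part.

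No apolipoprotein passed the test between the doses. Of 9 tested members, 0 passed at an adjusted p under 0.05, against 0 of 10985 probes (0% called), and every member had an adjusted p of 1.00 in limma. At an unadjusted p under 0.05 there were also 0 of 9 members, with 120 of all probes (1.09%). Fitted differences were above 0 for 6 members and below 0 for 3, with a median of 0.086, beside a median of 0.025 over all tested probes, of which 55.1% lay above 0. In animals 19 and 20 alone 0 of 9 members passed, and their differences ran from −0.51 (APOA5) to 0.16 (APOC2). The groups overlapped for 9 of 9 members, while 0.61% of all tested probes had groups without overlap. In bulk tissue, fewer cells of a type and less RNA per cell cannot be told apart.

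**Figure D1:**
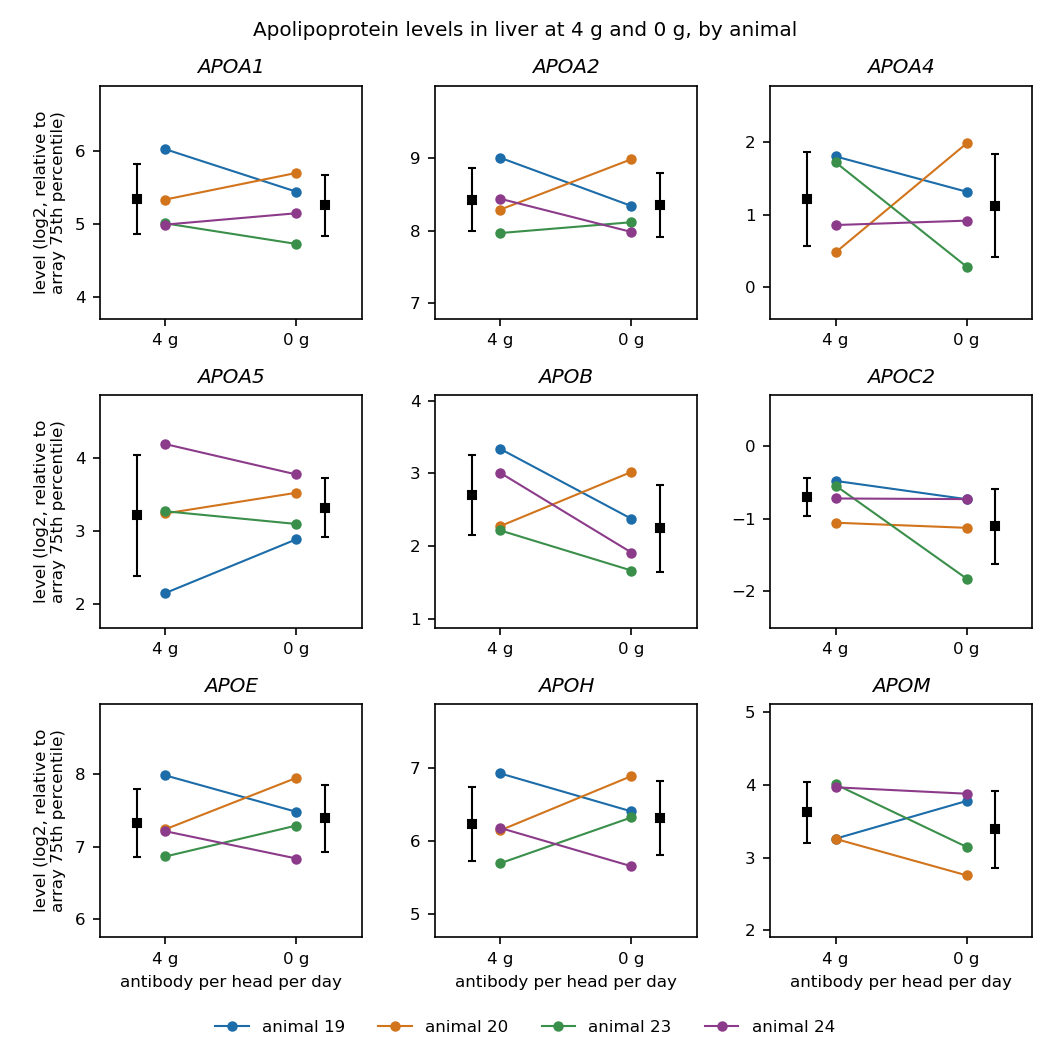
Levels (log2 relative to the array's 75th percentile) of the 9 tested apolipoprotein probes at 4 g and 0 g. Points joined by a line are the 2 arrays of an animal, and black squares with bars are mean ± SD of 4 animals; the 2 doses overlap in every panel, and APOA5 of animal 24 is highest at both doses.

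The main proteins of high-density lipoprotein had overlapping levels at 4 g and 0 g. APOA1, which takes up cholesterol from cells and activates the enzyme LCAT, had levels of 6.03, 5.34, 5.01 and 4.99 at 4 g and of 5.44, 5.70, 4.72 and 5.15 at 0 g in animals 19, 20, 23 and 24. Animals 19 and 23 were higher at 4 g and animals 20 and 24 lower. The difference was 0.086 (95% CI −0.53 to 0.71), a 1.06-fold ratio with an interval from 0.691 to 1.63. APOA2, the second protein of these particles, averaged 8.43 ± 0.43 at 4 g and 8.36 ± 0.44 at 0 g (SD, n = 4 animals each), with 0.069 between them (95% CI −0.65 to 0.79). Its levels were 9.003, 8.29, 7.97 and 8.44 at 4 g and 8.34, 8.98, 8.12 and 7.98 at 0 g, so the highest value of each group came from a dim array.

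APOM, a lipocalin that carries sphingosine-1-phosphate on high-density lipoprotein, was higher at 4 g in 3 of 4 animals. It had levels of 3.26, 3.26, 4.01 and 3.97 at 4 g and of 3.78, 2.76, 3.15 and 3.88 at 0 g in animals 19, 20, 23 and 24. Group means were 3.63 ± 0.42 at 4 g and 3.39 ± 0.53 at 0 g (SD, n = 4 animals each), and the difference of 0.23 (95% CI −0.47 to 0.94) was smaller than either SD. In animals 19 and 20 alone the difference was −0.0085.

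APOB, the backbone of very-low-density lipoprotein, had the widest gap between the groups. Its levels were 3.34, 2.28, 2.22 and 3.01 at 4 g and 2.38, 3.02, 1.66 and 1.91 at 0 g. Animals 19, 23 and 24 were higher at 4 g, by 0.96, 0.55 and 1.09, and animal 20 was lower by 0.74. The fitted difference was 0.47 (SE 0.36, unadjusted p = 0.237, limma adjusted p = 1.00), which is 1.38-fold with an interval from 0.760 to 2.51. It was 0.87 without animal 20, 0.11 in animals 19 and 20 alone and 0.35 with no scaling between arrays. The 0 g level was lowest in animal 23, on the array that carried the pancreatic genes. Without that array, and with no block by animal, the difference was 0.27.

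APOA4, made by liver and gut and linked to the secretion of large fat-rich particles, varied most among animals in its dose difference. Its levels were 1.80, 0.48, 1.72 and 0.86 at 4 g and 1.32, 1.98, 0.29 and 0.92 at 0 g in animals 19, 20, 23 and 24. The difference was 1.43 in animal 23 and −1.50 in animal 20, and 0.49 and −0.060 in animals 19 and 24. The fit put it at 0.090 with an interval from −1.05 to 1.23, the widest of the 9 members. It was −0.36 without animal 23, whose 0 g array was again the lowest of the 8 for this gene.

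Among the members that steer lipoprotein lipase, the enzyme that releases fatty acids from particles, APOC2 is its activator. The APOC2 probe had levels of −0.48, −1.06, −0.55 and −0.72 at 4 g and −0.73, −1.13, −1.83 and −0.73 at 0 g. It was higher at 4 g in 4 of 4 animals, the only member so, while 3.17% of all tested probes were higher in 4 of 4. The sizes were uneven, at 1.28 in animal 23 and 0.25, 0.070 and 0.0086 in animals 19, 20 and 24. The fitted difference was 0.40 (SE 0.29, unadjusted p = 0.216, limma adjusted p = 1.00). Without animal 23 it was 0.11, and without the 0 g array of animal 23, with no block by animal, it was 0.16. Levels of APOA1, APOA4, APOB and APOC2 were all at their lowest on that array, which is 4 of 9 members, against 15.7% of all tested probes. Pancreatic acinar genes averaged 6.66 there, and their part in these values was not tested.

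APOA5, which helps the lipase act and lowers plasma triglyceride in mouse and human, had the smallest p of the members in the comparison between animals. Levels in animal 24 were 4.20 at 4 g and 3.78 at 0 g. In animal 20 they were 3.24 at 4 g and 3.53 at 0 g, and in animal 23 they were 3.27 at 4 g and 3.099 at 0 g. Animal 19 had the lowest pair, with 2.15 at 4 g and 2.89 at 0 g. The F-test on the animal terms gave an unadjusted p of 0.044 for APOA5, the only member under 0.05, with 2.71% of all tested probes under it, and its limma adjusted p was 0.985. No member and 0 of 10985 probes (0%) passed that test after adjustment. The dose difference was −0.11 (95% CI −0.77 to 0.55). It was below 0 in animals 19 and 20 (−0.74 and −0.28) and above 0 in the other two (0.17 and 0.42). Such opposed signs in the 2 slide rows, described further on, were found for 1 of 9 members, beside 4.96% of all tested probes.

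APOC3, which slows lipolysis, could not be followed. Its probe was not well above background on any of the 8 arrays, with processed signals from 1.03 to 2.42, so no level or difference is given. The file places the probe 1043 bases into an unmapped cDNA read, and the stretch printed above is all that is shown of it.

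**Figure D2:**
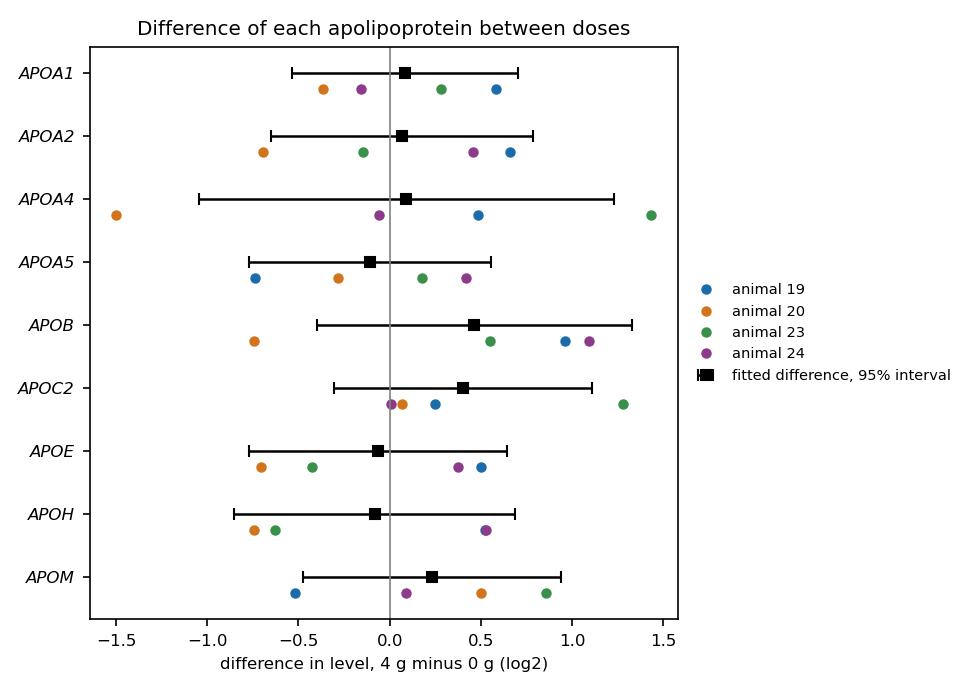
Difference in level between 4 g and 0 g (log2) for 9 apolipoproteins. Black squares with bars are the fitted difference and its 95% interval, and coloured points are the 4 animals; every interval includes 0, and the points of APOA4 run from −1.50 to 1.43.

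APOE is a ligand of the LDL receptor family that macrophages also make. APOH is a phospholipid-binding plasma protein also called beta-2-glycoprotein I. Their profiles were alike with scaling by the 75th percentile (r = 0.992 over the 8 arrays) and less so after quantile normalization (r = 0.817). With the first scaling APOA2 had an r of 0.950 with APOE and of 0.926 with APOH. After quantile normalization APOE was most like APOA1 (r = 0.929). Levels with the first scaling share the subtracted percentile, and its part in these r was not tested. APOE averaged 7.33 ± 0.47 at 4 g and 7.39 ± 0.46 at 0 g (SD, n = 4 animals each), which is −0.064 between doses (95% CI −0.77 to 0.64). APOH averaged 6.24 ± 0.51 at 4 g and 6.32 ± 0.51 at 0 g, which is −0.082 between doses (95% CI −0.85 to 0.69). In animal 19 the APOE level was 7.98 at 4 g and 7.48 at 0 g, and that of APOH was 6.93 at 4 g and 6.41 at 0 g. Animal 20 showed the opposite order, with 7.24 at 4 g and 7.95 at 0 g for APOE and 6.15 at 4 g and 6.89 at 0 g for APOH. APOE in animals 23 and 24 had levels of 6.87 and 7.21 at 4 g and of 7.29 and 6.84 at 0 g, and APOH had 5.69 and 6.18 at 4 g and 6.32 and 5.65 at 0 g. APOE was thus lower at 4 g by 0.43 in animal 23 and higher by 0.38 in animal 24, and APOH was lower by 0.63 and higher by 0.53. APOA2 shared these signs in 4 of 4 animals with this scaling. After quantile normalization it did not, with −0.11 in animal 19, 0.41 in animal 23 and no difference in animals 20 and 24. Quantile normalization gives each rank a fixed value. APOA2 took 8.36 or 8.47 on every array but the 0 g array of animal 23 (8.06). Its quantile differences thus show changes of rank among the brightest probes, not sizes of change in signal. In animal 23 the quantile values of APOE and APOH had opposite signs, at 0.044 and −0.49. Macrophage markers, all 9 of which were well above background on every array, had list means from 1.22 to 1.77 at 4 g and from 1.41 to 1.74 at 0 g.

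Levels of APOA2, APOE and APOH ran most strongly opposite to the brightness of the arrays. Their Pearson r with the log2 75th percentile was −0.990, −0.941 and −0.914. APOA1 and APOB followed with −0.840 and −0.835, and their unscaled signals spanned 1.67-fold and 2.08-fold. The r was −0.54 for APOA4, −0.095 for APOC2, 0.39 for APOA5 and 0.70 for APOM. A level is a signal minus this same percentile, so a flat signal gives a negative r by construction. For APOA2 the unscaled processed signals were 64577, 68354, 78109.7 and 77863 at 4 g and 79388, 64000.2, 75860.3 and 78638.5 at 0 g in animals 19, 20, 23 and 24. They spanned 1.24-fold, while the 75th percentile by which levels are scaled spanned 2.48-fold. Only 0.109% of tested probes had a narrower span of signal, and the median probe spanned 3.21-fold. In animal 19 the unscaled APOA2 signal was lower at 4 g than at 0 g, whereas its level was higher by 0.66. Unscaled signals of APOE spanned 1.40-fold and those of APOH 1.46-fold, and only 1.33% and 1.98% of tested probes had a narrower span. Of the spots, 0 were flagged as saturated, and whether an upper limit of signal narrowed these spans was not tested. For APOA2, APOE and APOH the lowest 2 unscaled signals were those of the dim arrays, yet the highest 2 levels were too.

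After quantile normalization, which gives all arrays the same distribution of signals, the SD of APOA2 over the 8 arrays was 0.14, against 0.41 with scaling by the 75th percentile. That value of 0.14 is bounded by the few top ranks that APOA2 took, with quantile levels of 8.06, 8.36 and 8.47 alone. For APOE the SD was 0.20, against 0.43, and for APOH 0.34, against 0.48. Differences between the doses with quantile normalization were 0.073 for APOA2, −0.0021 for APOE and −0.11 for APOH. The dim arrays held the highest 2 levels for 6 of 9 members, namely APOA1, APOA2, APOA4, APOB, APOE and APOH, while 24.3% of all tested probes did so. They held the lowest 2 levels for 0 of 9 members, with 19.7% of all tested probes. The liver genes ALB and TTR, which are no apolipoproteins, also had their highest 2 levels on the dim arrays. These were 7.21 and 8.42 for animal 19 at 4 g and 6.99 and 8.21 for animal 20 at 0 g. The whole list of 20 hepatocyte genes had medians of 5.16 and 5.02 on these arrays, the lowest of each dose. List means were 3.67 and 3.83 there, so high levels on the dim arrays were not general among liver genes. APOM was lowest on the 0 g array of animal 20 and APOA5 on the 4 g array of animal 19. The part of array brightness in these differences was not tested. Each dose had 1 dim array.

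**Figure D3:**
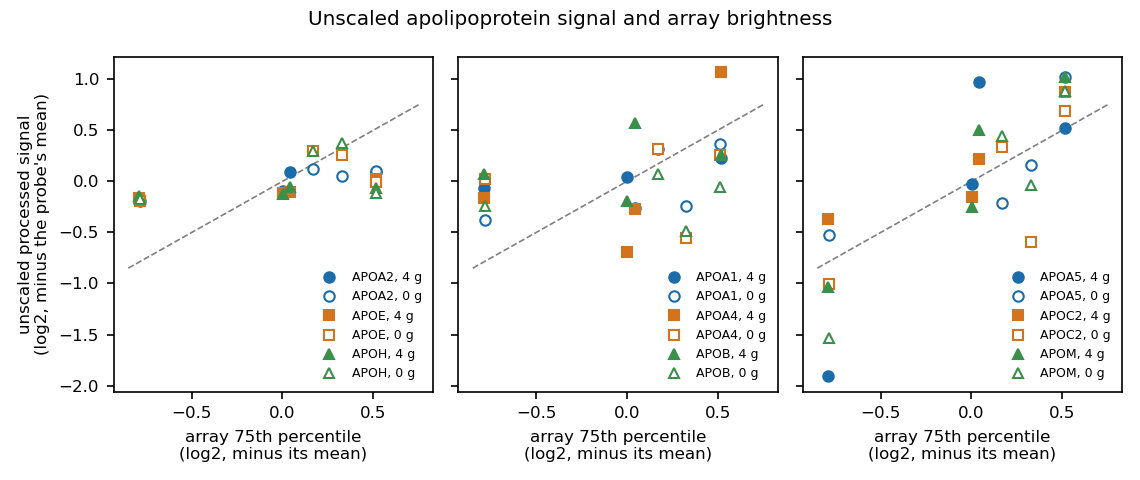
Unscaled processed signal (log2, minus each probe's mean) against the 75th percentile of the array (log2, minus its mean), with filled symbols for 4 g and open symbols for 0 g. The dashed line is where a signal would change as much as the 75th percentile; APOA2, APOE and APOH lie flat, with spans of 1.24, 1.40 and 1.46-fold, while APOA5 and APOM span 7.64 and 5.87-fold.

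Precision differed by member. The 95% interval excluded a 2-fold change in either direction for 6 of 9 members, with APOA4, APOB and APOC2 as the exceptions, and for 64.3% of all tested probes. The 6 include APOA2, APOE and APOH, whose unscaled signals spanned only 1.24, 1.40 and 1.46-fold. Whether these probes could show a 2-fold change was not tested. Over all tested probes the median half-width was 0.70 on the log2 scale, or 1.63-fold. A p above the threshold does not show that a member was unaffected. Between the slide rows, which hold animals 19 and 20 in row 1 and animals 23 and 24 in row 2, the difference between doses was compared by an interaction term. In that test 0 of 9 members passed, with 0 of 10985 probes (0%) in limma after adjustment and 0 of 9 members at an unadjusted p under 0.05 (0.983% of all tested probes).

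Genes whose levels ran most like a member's over the 8 arrays were sought for the 3 tested members with the largest SD over arrays, among 10963 other probes. For APOA4 they were WWP2 (Pearson r = 0.980), FBXO44 (0.966) and NOSTRIN (0.957). APOA5 was most like PPA2 (r = 0.927), NAA20 (0.914) and CFI (0.908), and APOB was most like MNS1 (r = 0.996), DPP8 (0.980) and CRYBG2 (0.980). The 8 arrays come from 4 animals and share the differences in brightness, so these values only describe likeness.

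The other genes of lipoprotein handling did not pass either. Of 65 listed genes 56 were on the array and 53 were tested. Of the tested genes 34 had a difference above 0 and 19 below 0, with a median of 0.042. Over all tested probes 55.1% lay above 0, and the median was 0.025. Whether the listed genes depart from that share, together or by role, was not tested. At an adjusted p under 0.05 there were 0 of 53, and 1 of 53 had an unadjusted p under 0.05, beside 1.09% of all tested probes. That gene was SEC16B, which organises the sites where secretory cargo leaves the endoplasmic reticulum. It averaged −1.22 ± 0.62 at 4 g and −2.27 ± 0.30 at 0 g (SD, n = 4 animals each), with 1.04 between them (SE 0.31, limma adjusted p = 1.00) that was positive in 4 of 4 animals. SEC16B was already known to be among the higher probes of this series when the list was written.

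In assembly and secretion 6 of 7 genes lay above 0. MTTP, the transfer protein that loads lipid onto APOB, had a level of 2.81 ± 0.30 at 4 g and of 2.68 ± 0.13 at 0 g, and its fitted difference was 0.14 (SE 0.24). Receptors and uptake genes were split 4 and 4. APOBR, a macrophage receptor for APOB-bearing particles, differed by −0.88 (SE 0.40), with −0.39, 0.26, −1.88 and −1.51 in animals 19, 20, 23 and 24. The receptor gene VLDLR differed by −0.64 (SE 0.54), and that mean rested on −2.69 in animal 23, whose 0 g array carried the pancreatic genes and the highest levels of ADIPOQ and FABP4.

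Of 7 lipases and remodelling genes 3 lay above 0 and 4 below. LPL, lipoprotein lipase itself, differed by −0.51 (SE 0.27) and was below 0 in 4 of 4 animals, while 2.08% of all tested probes were lower in 4 of 4. The adipocyte marker FABP4 was also lower in 4 of 4, with −3.19, −1.41, −1.02 and −4.71 at 4 g and −1.24, 1.17, 1.94 and −2.45 at 0 g in animals 19, 20, 23 and 24. LPL and FABP4 are themselves among the 8 adipocyte genes of the marker list. These 8 had list means from −5.64 to −4.86 at 4 g and from −5.70 to −3.66 at 0 g. In animal 24 the list mean was higher at 4 g (−5.64 against −5.70), and it was lower in the other animals. Of the listed genes, 2 or 3 were well above background at 4 g and 2 to 5 at 0 g. ADIPOQ was well above background on 0 arrays at 4 g and on 2 at 0 g. The part of adipose tissue in the LPL value was not tested. LIPC, the hepatic lipase, differed by 0.77 (SE 0.43), with 1.75, −0.63, 1.45 and 0.50 in animals 19, 20, 23 and 24. The cholesterol exporters ABCA1, which lipidates APOA1, and ABCG1 differed by −0.38 (SE 0.29) and −0.27 (SE 0.26). Among regulators, LMF1, a maturation factor for lipases, differed by 0.36 (SE 0.23) and was above 0 in 4 of 4 animals.

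Transcription factors that act on apolipoprotein genes had 11 of 15 differences above 0, with a median of 0.067, beside 55.1% of all tested probes. The smallest p among them was that of ONECUT1, with 2.86 ± 0.55 at 4 g and 2.27 ± 0.31 at 0 g (difference 0.59, SE 0.27). HNF4A, a main activator of these genes in liver, differed by 0.025 (SE 0.28). Of 8 further apolipoprotein genes and relatives, 6 lay above 0. APOD, a lipocalin made by many tissues, differed by −1.10 (SE 0.58), with −2.13, −0.046, 0.54 and −2.74 in animals 19, 20, 23 and 24. APOOL, a mitochondrial protein of the inner membrane, differed by 0.17 (SE 0.24). None of these genes passed in limma (adjusted p = 1.00 for each gene named).

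**Figure D4:**
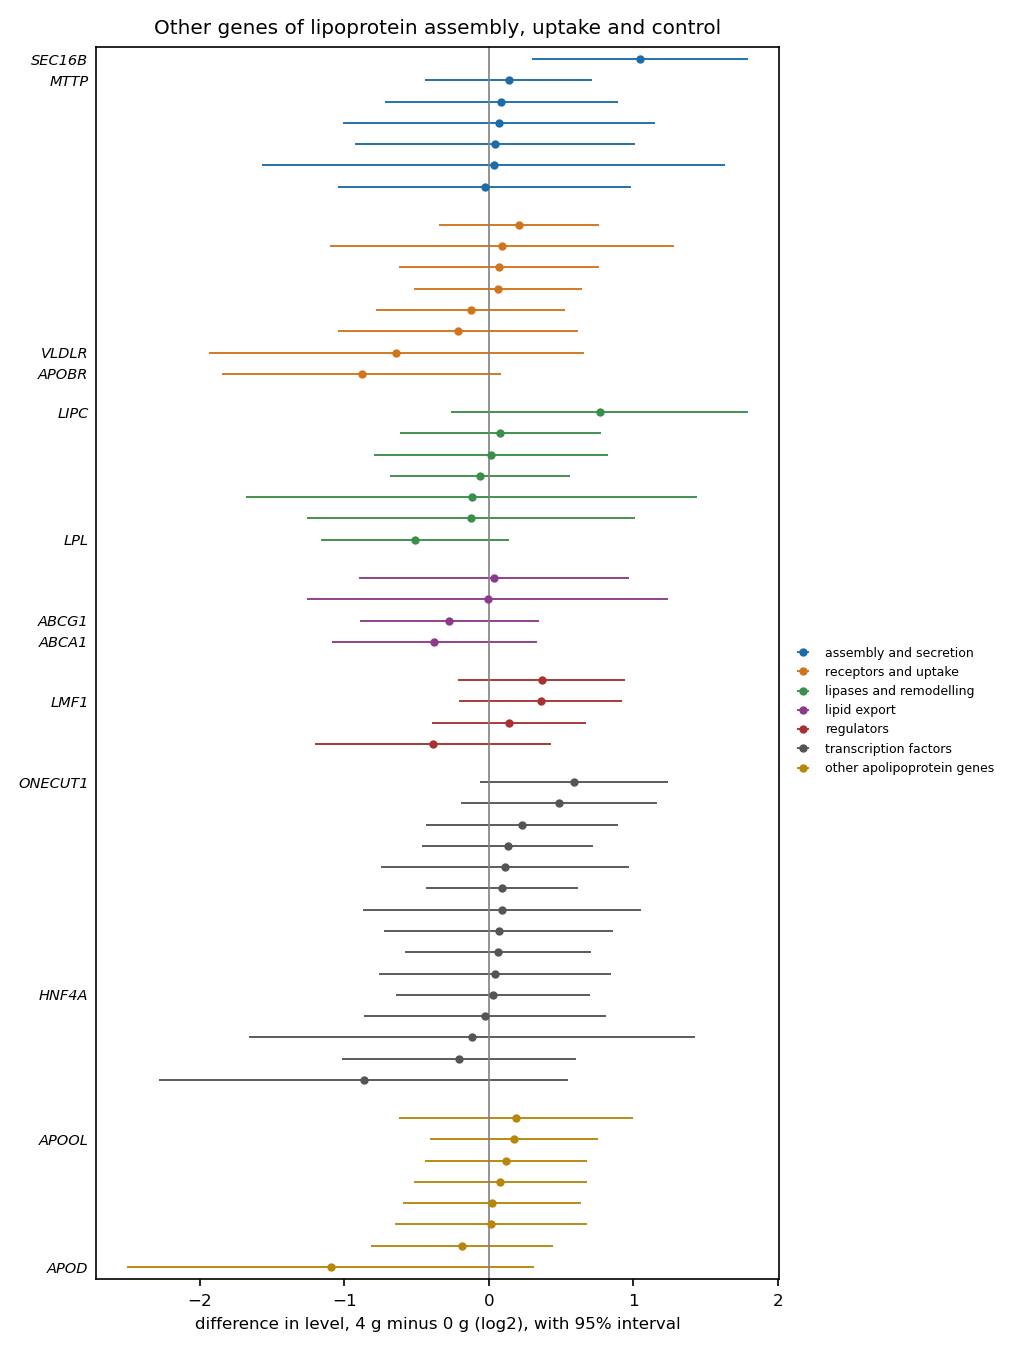
Difference in level between 4 g and 0 g (log2) with its 95% interval for 53 other genes of lipoprotein handling, grouped and coloured by role, with the genes of the text labelled. Only the interval of SEC16B lies wholly on 1 side of 0, and its adjusted p is 1.00.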

How the data were processed

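Liver RNA labelled with Cy3 was hybridised to 8 arrays (1 slide, 1 scan). The deposited processed signals are intensity values from Agilent Feature Extraction 11.0.1.1 per the file headers, detrended and unscaled; version 9.5 is named in the submitters' processing notes. The deposited series table holds the authors' log2 values, centred on the 75th percentile of each array, with column medians from −3.08 to −2.86, and its columns correlated with the log2 processed signals at 1.00. The 536 control features and 48 outlier spots were left out, spots of 1 probe were averaged, and levels were scaled by the 75th percentile over the 15110 other features. Between 64.6% and 80.5% of these features were well above background. Signal over background and the number of arrays limit the precision.

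The fit used limma 3.58.1 (lmFit and eBayes, 2-sided) in R 4.3.3, and was tested on simulated data. The animal was a block because the study was a Latin square and the labels number the animals. Deviations from group means correlated at −0.19 to 0.21 between the 2 arrays of an animal. Between the 4 g and 0 g arrays of different animals they correlated at −0.60 to 0.62. The pairing therefore rests on the labels, and the period of a dose was not among the labels. Of the 10 members, 6 matched a RefSeq accession (ARS-UCD2.0, names only) and 4 a current symbol. Alternatives covered pairing, scaling, background correction, filters, variance model, array weights and left-out arrays. All members were named; of each role of the pathway list the 2 tested genes with the smallest p, and for 3 members the 3 most similar genes; some genes that the rule names are not reported here. HNF4A was named outside this rule after its value was seen, as were RAB33A, ALB, TTR, FABP4, ADIPOQ, VIL1 and ALPI. Members and lists were chosen with earlier results of these data known.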

Additional observations from a re-analysis of the deposited data

Results flagged for a closer look

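APOA5 moved in opposite directions in the 2 slide rows. In row 2 (animals 23 and 24) it was higher at 4 g, by 0.30 on average, and in row 1 (animals 19 and 20) it was lower at 4 g, by −0.51 on average. The difference between the rows was 0.81 on the log2 scale (SE 0.57, unadjusted p = 0.207, limma adjusted p = 1.00), so it did not pass the interaction test. Such opposed signs were found for 1 of 9 tested members and for 4.96% of all tested probes. The animals of row 2 are those whose labels are in doubt, and row 1 holds both dim arrays, so row, animal and brightness cannot be told apart. No apolipoprotein had an array or an animal standing apart from the other 3 by Dixon's test, in which chance flags about 1 in 20 groups.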

How the results depend on the processing

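Under all 19 alternatives 0 apolipoprotein probes passed, and the median difference of the 9 tested members lay between −0.080 and 0.30. With no replicate block 0 probes passed and 103 had an unadjusted p under 0.05; the block changed no call. Over all probes 0 passed in 18 of the alternatives, and 5 passed without the 2 dimmest arrays and with no block by animal, none of them an apolipoprotein. APOB (0.11 to 0.87) and the APOC2 probe (0.11 to 0.64), whose strand was not tested, were above 0 in every alternative run. Signs turned, with no call, for the others. APOA1 was −0.080 without animal 19 (leaving out each animal gave −0.080 to 0.24), −0.090 without the 0 g array of animal 23 and −0.027 with no scaling between arrays. APOA2 was −0.13 without animal 19 (−0.13 to 0.32), −0.060 without animal 24, −0.010 without the 0 g array of animal 23, −0.015 in animals 19 and 20 alone and −0.044 with no scaling. APOA4 was −0.041 without animal 19, −0.36 without animal 23 (−0.36 to 0.62), −0.19 without the 0 g array of animal 23, −0.51 in animals 19 and 20 alone and −0.023 with no scaling. APOA5 was 0.061 with array weights, 0.10 without animal 19 (−0.28 to 0.10), 0.32 without the 2 dimmest arrays and 0.30 in animals 23 and 24 alone. APOE was 0.15 without animal 20 and 0.056 without animal 23 (−0.25 to 0.15), APOH was 0.14 and 0.10 (−0.28 to 0.14), and APOM was −0.0085 in animals 19 and 20 alone, with 0.024 without animal 23 and 0.48 without animal 19. The cause of these turns was not tested. With no scaling the median of all probes was −0.088. The unscaled fit, the fit of animals 23 and 24 alone and the rescaled row tests were added after seeing the data. The counts of members by slide row and between animals and that of pathway genes stayed at 0 in every alternative run for them. Over all probes 1 differed between animals without animal 19, and 1 in animals 19 and 20 alone. Signal near background kept 1 of 10 members, APOC3, from being tested.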
